A study of Mus musculus with 6 samples.

Results

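The proteasome is the large protease that degrades ubiquitin-tagged proteins, and its subunits were followed here in hearts of 3 wild-type (WT) and 3 SRAKO mice. Their genes were chosen by symbol: Psm followed by a, b, c, d or e and a number, leaving out Psmb8 and Psmb9. This rule found 40 genes among the 25901 rows of the expression table, each in a single row, and used none of their values. The rows of Psmb5 and Psmd1 also cover other genes. All 6 mice had received isoproterenol, which stimulates beta-adrenergic receptors and can enlarge the heart, for 4 weeks. The labels separate the groups by genotype, and no untreated hearts were used, so the response to the drug was not measured. The name SRA stands for steroid receptor RNA activator, made from the gene Sra1. The hearts are WT2368, WT2379 and WT2378, and SRAKO2365, SRAKO2371 and SRAKO2372. The labels used here give neither strain, sex and age nor the way the gene was disrupted.

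The proteasome is assembled from a barrel-shaped core and regulatory particles that cap it. The core stacks outer alpha rings, encoded by Psma genes, on inner beta rings, encoded by Psmb genes, and only a few beta subunits cut peptide bonds. The regulatory particle has a base, where the ATPases encoded by Psmc genes unfold the substrate, and a lid of Psmd products that removes ubiquitin. Activators encoded by Psme genes can take the place of the regulatory particle. Heart muscle depends on this system to clear damaged and misfolded contractile proteins, and Psmb8, Psmb9 and Psmb10 are inducible catalytic subunits that replace their constitutive counterparts, chiefly under interferon. The transcription factor NRF1, encoded by Nfe2l1, is known to raise proteasome genes together when proteasome activity is short.

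Promoters are shown for 3 catalytic subunits whose levels are given below, the constitutive Psmb5 and Psmb6 and the inducible Psmb10. Psmb7, which Psmb10 replaces, had no RefSeq window. The sequences of 300 bases span the transcription start and come from RefSeq (GRCm38.p6). They lie at chr14:54617946-54618245 on the minus strand for Psmb5, chr11:70525107-70525406 on the plus strand for Psmb6 and chr8:105938343-105938642 on the minus strand for Psmb10. Capitals mark TGANNNNGC, the short form of the antioxidant response element that NRF1 and related factors can bind, searched on both strands.

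Psmb5: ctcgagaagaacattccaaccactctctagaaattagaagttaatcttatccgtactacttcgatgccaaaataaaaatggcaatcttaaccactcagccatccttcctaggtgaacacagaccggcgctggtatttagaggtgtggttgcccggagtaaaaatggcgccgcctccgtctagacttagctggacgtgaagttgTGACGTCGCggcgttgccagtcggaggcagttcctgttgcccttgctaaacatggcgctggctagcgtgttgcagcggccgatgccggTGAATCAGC

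Psmb6: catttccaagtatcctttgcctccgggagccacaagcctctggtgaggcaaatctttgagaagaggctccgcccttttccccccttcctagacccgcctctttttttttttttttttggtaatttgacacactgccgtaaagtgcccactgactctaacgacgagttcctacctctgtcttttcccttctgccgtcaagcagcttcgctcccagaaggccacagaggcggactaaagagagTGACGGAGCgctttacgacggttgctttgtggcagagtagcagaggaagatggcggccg

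Psmb10: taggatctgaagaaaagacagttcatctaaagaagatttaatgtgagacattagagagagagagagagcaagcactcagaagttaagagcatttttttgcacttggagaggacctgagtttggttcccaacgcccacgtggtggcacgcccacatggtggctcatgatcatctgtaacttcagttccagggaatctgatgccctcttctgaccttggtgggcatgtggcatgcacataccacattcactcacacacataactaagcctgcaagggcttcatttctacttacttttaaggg

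Psmb5 held 2 matches, Psmb6 held 1 and Psmb10 held 0. Counted from the transcription start, those of Psmb5 began at -47 and 42, the latter downstream of the start. That of Psmb6 began at -9. Of 33 genes with a RefSeq window, 18 had this motif in at least 1 window. Counted by window, the motif was in 55.6% of 36 member windows and in 41.3% of all 32851 windows. CCAAT, the box bound by NF-Y, was in 33.3% of the member windows and in 37.4% of all windows. TGACTCAGC, which fixes every letter of TGANNNNGC and is counted among its matches, was in 0 of the 36 and in 0.454% of all. These matches describe letters in the windows and were not related to binding.

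Sra1 was checked first as the targeted gene, in FPKM, which scales read coverage by transcript length and library size. It stood at 4.40, 6.31 and 4.23 in WT2368, WT2379 and WT2378, and at 1.96, 1.78 and 2.05 in SRAKO2365, SRAKO2371 and SRAKO2372, lower in all SRAKO hearts (difference -1.01 with limma, Benjamini-Hochberg adjusted p = 0.258 over all rows). Depth, read from the steps between the lowest values, was 8282 to 13080 aligned bases per kilobase at an FPKM of 1, with WT2368 the shallowest heart. Cardiomyocyte markers were abundant in every heart: Myh6, Tnnt2, Tnni3, Actc1, Myl2 and Ryr2 summed to between 9617 and 11713. WT2368 and SRAKO2371 stood apart by ribosomal RNA, with 6242 and 3003 in the main ribosomal row against 273 to 595 in the other hearts. For that reason the median of each part of the complex is also given without WT2368, the heart with the most. Medians without both hearts follow further below.

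No proteasome gene was called different between genotypes in these hearts. Of the 40 genes, 39 reached FPKM 1 in 3 or more hearts and were tested. By limma, 0 of them had an adjusted p (Benjamini-Hochberg) under 0.05 over all 10201 rows, where 0.0196% of rows did (smallest adjusted p among the genes 0.999). At an unadjusted p under 0.05 there were also 0, against 3.46% of all rows. The genotypes overlapped in all 39, while 4.28% of all rows were higher in every SRAKO heart than in any WT heart and 3.76% lower. Differences, given throughout as SRAKO minus WT on log2(FPKM + 1), ran from -0.16 for Psmd5 to 0.14 for Psmb6. Their median was 0.01, equal to that of all rows, with 21 above and 18 below 0, where 53.5% of all rows were above. All 39 intervals at 95% lay within 0.5 of 0 on this scale, as did 80.4% over all rows, a bound chosen after the values were seen. The widest limits were -0.48 for Psmd11 and 0.48 for Psmb6. Adding 1 to FPKM shrinks differences of genes with low levels, and that of Psmd5 was -0.27 with 0.1 added instead. With 3 hearts a genotype the adjusted test did not call Sra1 either, so it leaves smaller differences undecided.

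**Figure D1:**
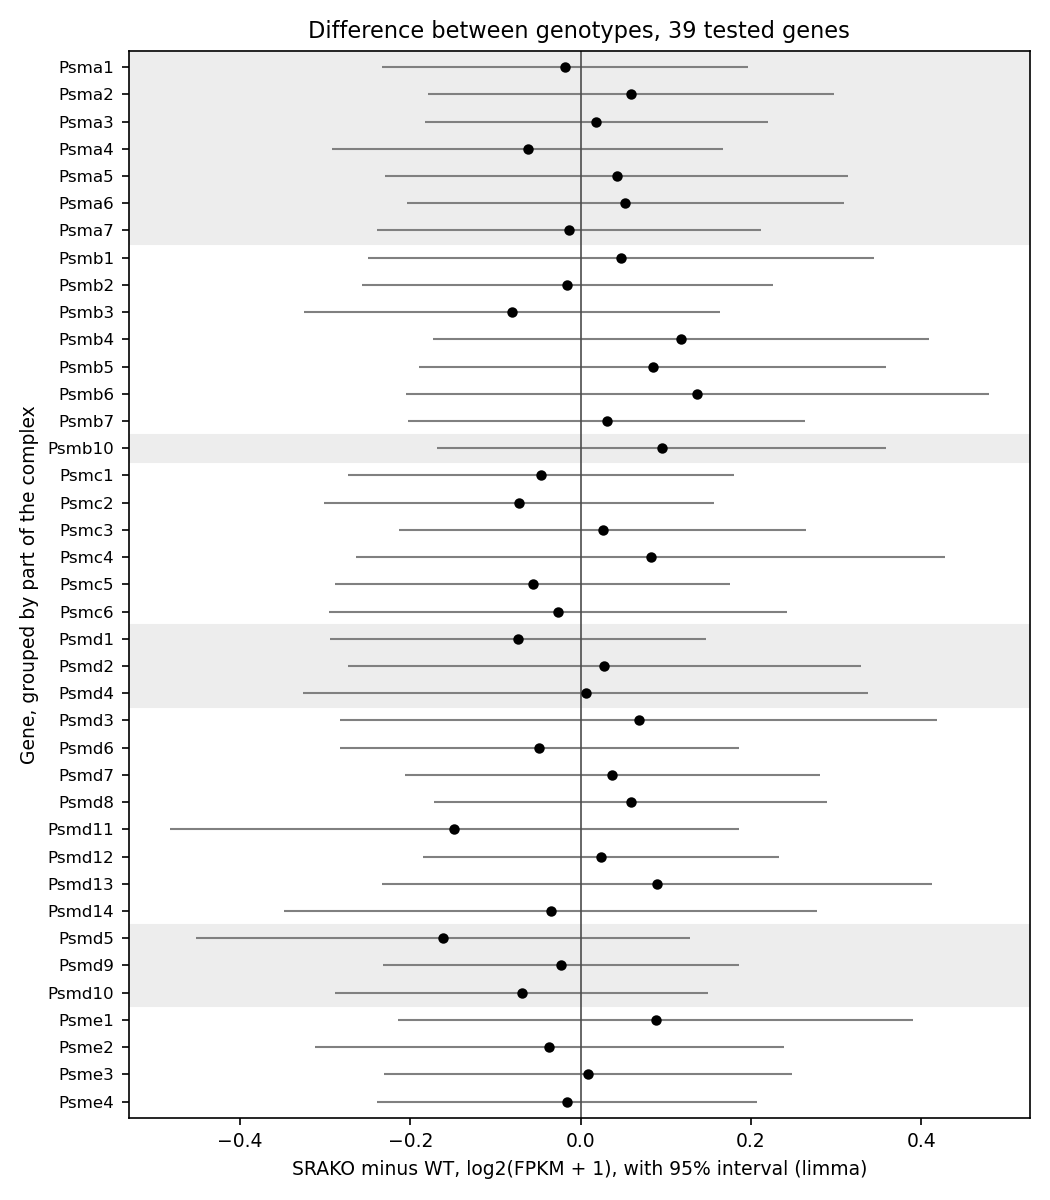
SRAKO minus WT difference in log2(FPKM + 1) (x axis) for the 39 tested genes (y axis), grouped by part of the complex with alternating shading. Points are limma estimates and bars their 95% intervals, all of which cross 0 and end between -0.48 and 0.48.

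The genes lie on 16 chromosomes, 8 of them on chromosome 11. Mean FPKM over the 6 hearts spanned 46.7-fold among the tested genes, from 1.18 for Psmd5, an assembly chaperone, to 55.2 for Psmb2. This order was nearly the same in every heart, with Spearman's rho of 0.968 to 0.997 over the 39 genes for the 15 pairs of hearts, as a description. Psmb2 ranked first in each heart, and Psma6 and Psmc3 took the next ranks, changing places in SRAKO2365 alone. The subunits of each ring and of the lid, most of them built into the particle in equal numbers, were unequal too. Their range was 10.5-fold in the alpha ring, 5.41-fold in the ATPase ring, 5.28-fold in the lid and 2.92-fold in the beta ring. Such levels per length depend on which transcripts the authors' assembly put into a row, so part of these ranges may not be RNA abundance, which was not tested.

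**Figure D2:**
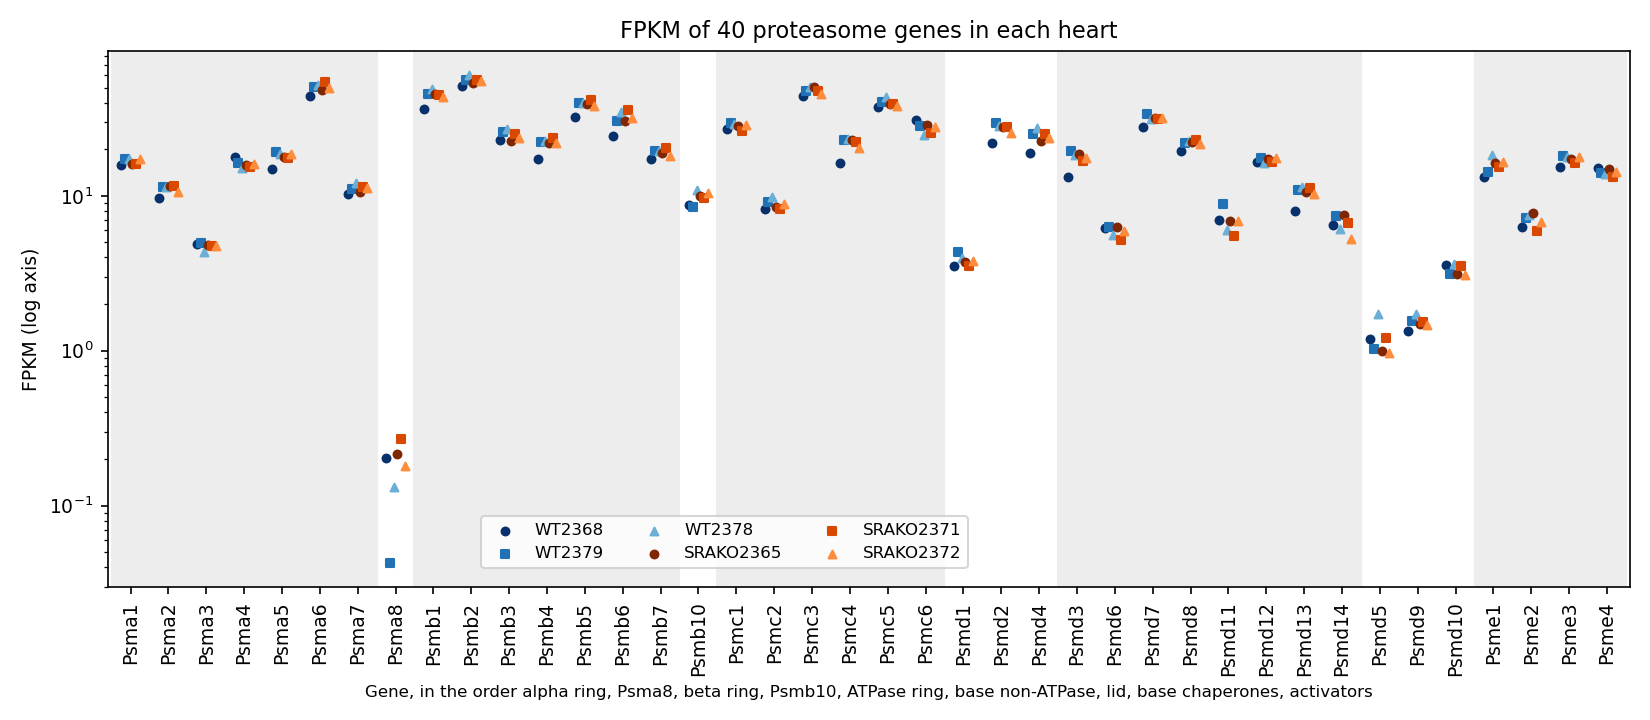
FPKM on a log axis (y) of the 40 genes (x) in each of the 6 hearts, WT in blue and SRAKO in orange, with shading that alternates between parts of the complex. Levels differ far more between genes than between hearts, from below 0.3 for Psma8 to above 50 for Psmb2.

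The alpha ring, whose subunits gate the entry to the core, had 4 of 7 genes above 0 and 3 below, with a median difference of 0.02. Without WT2368, 6 of 7 were below 0 (61.1% of all rows were) and the median was -0.02. Psma6, its most abundant gene (chr12:55398775-55418454, plus strand; this and later positions are GENCODE M21 on GRCm38), had an FPKM of 44.3, 50.3 and 52.3 in WT2368, WT2379 and WT2378, and of 48.0, 54.4 and 50.0 in SRAKO2365, SRAKO2371 and SRAKO2372. WT2368 was the lowest heart, and the SRAKO values fell within or just above those of WT. Psma3, the lowest of the ring, was at 4.89, 4.94 and 4.35 in WT and at 4.84, 4.77 and 4.77 in SRAKO, in the same order of hearts that is used from here on. Its 3 SRAKO values lay within 0.1 of each other, and its difference was 0.02 with an SE of 0.09. Psma8, the alpha subunit of the testis proteasome, was the gene that did not pass the filter, at 0.204, 0.0428 and 0.133 in WT and 0.214, 0.268 and 0.179 in SRAKO. These are low levels at which no test was made.

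The beta ring, which held the most abundant gene, had 5 of 7 genes above 0 with a median of 0.05, none past the test. This direction rested on WT2368: without it all 7 were below 0, with a median of -0.02. Psmb5, the chymotrypsin-like protease (chr14:54614119-54618022, minus strand, in a row shared with Mir686), was at 32.1, 39.9 and 39.8 in WT and 39.1, 41.3 and 37.9 in SRAKO. Psmb6, the caspase-like protease (chr11:70525367-70527858, plus strand), was at 24.2, 30.4 and 34.9 in WT and 30.3, 35.7 and 31.9 in SRAKO. Psmb7, the trypsin-like protease (chr2:38588036-38644087, minus strand), was at 17.3, 19.5 and 19.4 in WT and 18.9, 20.4 and 18.2 in SRAKO. In all of these WT2368 was the lowest heart and SRAKO2371 the highest. The differences were 0.08 for Psmb5 (95% interval -0.19 to 0.36), 0.14 for Psmb6 (-0.21 to 0.48) and 0.03 for Psmb7 (-0.20 to 0.26). Without WT2368 they were -0.02, 0.00 and -0.02. Psmb2, a structural beta subunit and the most abundant gene of all, was at 51.0, 55.6 and 60.2 in WT and 53.7, 56.0 and 54.9 in SRAKO, a difference of -0.02.

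Inducible catalytic subunits were scarcer than their constitutive counterparts in every heart. Psmb10, which replaces Psmb7, was at 8.71, 8.49 and 10.9 in WT and 10.004, 9.63 and 10.4 in SRAKO (chr8:105935735-105938444, minus strand). It stood at 43.5% to 56.1% of Psmb7 in WT and at 47.3% to 57.3% in SRAKO. Its difference was 0.10 (SE 0.11), and limma gave an adjusted p of 0.999 (Benjamini-Hochberg). Psmb8, the counterpart of Psmb5, was at 2.18, 2.30 and 3.44 in WT and 2.34, 2.38 and 2.44 in SRAKO, and WT2378 alone was high. Psmb9, the counterpart of Psmb6, was at 1.37, 1.07 and 1.57 in WT and 1.23, 1.26 and 1.0096 in SRAKO. Psmb8 thus reached 5.75% to 8.65% of Psmb5 and Psmb9 3.17% to 5.66% of Psmb6 over the 6 hearts, far below the share of Psmb10. Psmb8 and Psmb9 are not among the 40 genes and are given for comparison.

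**Figure D3:**
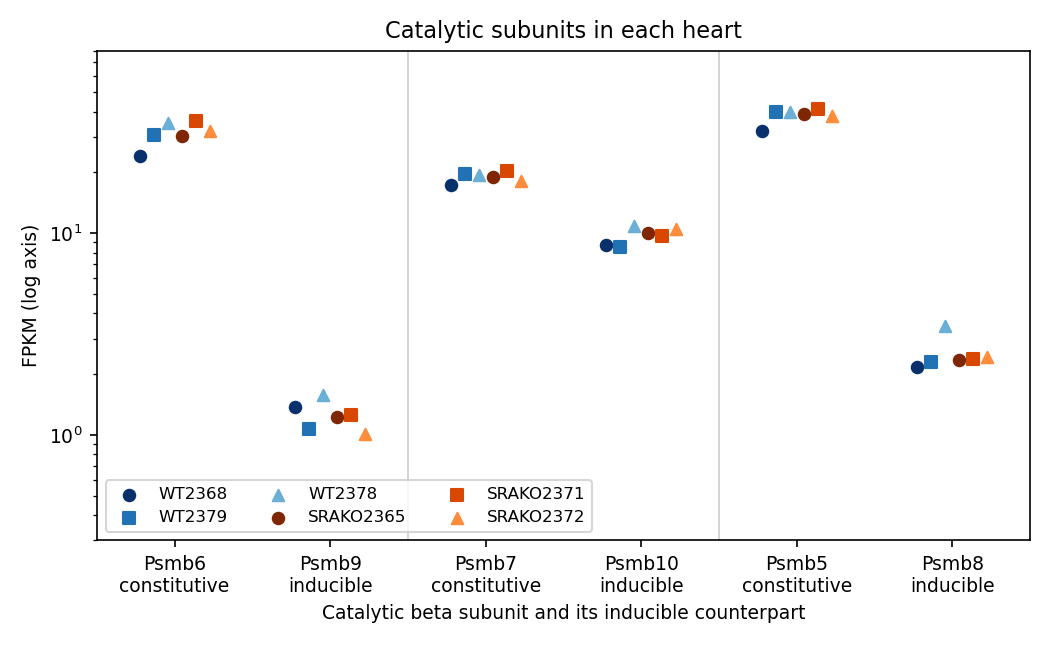
FPKM on a log axis (y) of each constitutive catalytic subunit beside its inducible counterpart (x) in the 6 hearts, WT in blue and SRAKO in orange. Psmb10 lies near 50% of Psmb7, while Psmb8 and Psmb9 stay below 9% of Psmb5 and Psmb6, in both genotypes.

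White blood cells use these inducible subunits, so their markers are given here. The leukocyte markers Ptprc, Coro1a and Laptm5, all in the table with 2 of 3 tested, summed to an FPKM of 6.58 to 8.53 in WT and 8.70 to 8.84 in SRAKO. The macrophage markers Adgre1, Cd68, C1qa and Csf1r, all tested, summed to 43.4 to 53.6 and 56.5 to 60.9. The neutrophil markers S100a8, S100a9 and Retnlg, all tested, summed to 0.889 to 9.44 and 2.501 to 51.0. SRAKO2371 and SRAKO2372 were high at 27.2 and 51.0, while SRAKO2365 lay within the WT range. Differences of these genes were 1.59, 2.04 and 1.52 (limma, unadjusted p = 0.0451, 0.0681 and 0.0447, Benjamini-Hochberg adjusted p = 0.999 for each). The lymphocyte markers Cd3e, Cd79a and Ms4a1, none tested, summed to 0.400 to 0.802 and 0.177 to 0.586. The leukocyte and macrophage sums did not overlap and were higher in SRAKO, but of their 7 genes C1qa alone separated the genotypes. Over all rows 4.28% were higher in every SRAKO heart than in any WT heart. Laptm5 and C1qa were the largest terms of these sums. WT2368 was the lowest heart in both, at 6.58 and 43.4, and the next WT values were 8.39 and 52.4. Differences were 0.30 for C1qa, 0.16 for Csf1r, 0.09 for Cd68 and -0.04 for Adgre1. Those of Laptm5 and Coro1a were 0.16 and 0.04, Ptprc was not tested, and none was called. Psmb8, Psmb9 and Psmb10 overlapped. S100a8 was listed at 0 in WT2378, Retnlg in WT2368 and Ms4a1 in SRAKO2365 and SRAKO2371, and none of these markers was at 0 in all hearts, and their part in the levels of the inducible subunits was not tested. In whole-heart RNA, fewer cells of a type and less RNA per cell cannot be told apart.

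The ATPase ring, which unfolds substrates and threads them into the core, had 2 genes above 0 and 4 below, with a median of -0.04. Without WT2368, 5 of 6 were below 0, with a median of -0.08. Psmc3 (chr2:91054009-91066369, plus strand) was its most abundant gene, at 43.9, 47.3 and 50.2 in WT and 50.6, 47.5 and 45.8 in SRAKO. Psmc2 (chr5:21785283-21803787, plus strand) was its least abundant, at 8.19, 9.06 and 9.85 in WT and 8.43, 8.26 and 8.89 in SRAKO. The genotypes overlapped in both genes, though SRAKO2365 was the highest heart for Psmc3, and the differences were 0.03 and -0.07. Per heart, the median FPKM of the ring was 26.9 to 29.0 in WT and 25.8 to 28.5 in SRAKO.

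Among the other base subunits, Psmd2 and Psmd4 dock ubiquitin or ubiquitin-like domains, and Psmd1 is the large scaffold beside them. Psmd2 (chr16:20651652-20663414, plus strand) was at 22.0, 29.5 and 28.1 in WT and 27.8, 27.6 and 25.3 in SRAKO. Psmd4 (chr3:95032694-95042614, minus strand) was at 19.02, 25.1 and 27.4 in WT and 22.8, 24.9 and 23.5 in SRAKO. Both were lowest in WT2368, and all their SRAKO values lay between that heart and the higher WT hearts. Differences were 0.03 and 0.01, and -0.10 and -0.14 without WT2368, neither called. The median of the 3 genes was 0.01, and -0.14 without WT2368. Psmd1 was at 3.52, 4.36 and 3.95 in WT and 3.74, 3.55 and 3.78 in SRAKO, but its row also covers Gm21972 and Armc9, and only 8 of its 21 transcripts belong to Psmd1.

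The lid had 5 of 8 genes above 0 and a median difference of 0.03. Without WT2368 the sign turned, with 7 of 8 below 0 and a median of -0.04. Psmd14 is its deubiquitinase, which cuts the ubiquitin chain off the substrate (chr2:61711694-61800376, plus strand). It was at 6.46, 7.35 and 6.07 in WT and 7.55, 6.65 and 5.26 in SRAKO, with the highest and the lowest value both in SRAKO (difference -0.04, 95% interval -0.35 to 0.28). Psmd7, its partner in that step and the most abundant lid gene, was at 27.8, 33.6 and 31.3 in WT and 31.8, 31.2 and 31.8 in SRAKO. Psmd6, the least abundant, was at 6.15, 6.31 and 5.62 in WT and 6.29, 5.17 and 5.96 in SRAKO. Neither separated the genotypes. By median FPKM the lid was lower than the ATPase ring in each heart. The median of the ATPase ring was 1.94 to 2.74 times that of the lid in WT and 1.86 to 2.04 times in SRAKO. Single genes did not all follow this, since Psmd7 was above Psmc2 in every heart.

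Chaperones that help build the base were the scarcest group, and all 3 had a difference below 0, where 46.5% of all rows did. Psmd5 was at 1.19, 1.03 and 1.72 in WT and 0.994, 1.20 and 0.961 in SRAKO, and its WT mean rested on WT2378. Psmd10, also known as gankyrin, was at 3.57, 3.12 and 3.65 in WT and 3.12, 3.52 and 3.07 in SRAKO. Psmd9 completed the group, at 1.54 ± 0.195 in WT against 1.495 ± 0.0376 in SRAKO (SD over 3 hearts). The hearts overlapped in each of them, all 3 stayed below 0 without WT2368 with a median of -0.08, and without WT2378 the difference of Psmd5 was -0.04.

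Activators had 2 of 4 genes above 0, and 1 of 4 without WT2368, with a median of -0.03. Psme1 and Psme2 encode the subunits of an interferon-inducible activator ring and lie 5.91 kb apart on chromosome 14. Psme1 was at 13.2, 14.3 and 18.3 in WT and 16.2, 15.5 and 16.6 in SRAKO, while Psme2 was at 6.28, 7.21 and 7.47 in WT and 7.76, 5.90 and 6.76 in SRAKO. The ratio of Psme1 to Psme2 was 1.98 to 2.44 in WT and 2.09 to 2.62 in SRAKO. Psme2 has a near-identical copy, Psme2b, listed at 2.85 to 4.38, and reads may be split between them. Psme3, which forms the nuclear activator ring, was at 15.4, 18.0 and 17.8 in WT and 17.3, 16.2 and 17.8 in SRAKO. Psme4, a large single-chain activator, was at 15.2, 14.006 and 13.7 in WT and 15.0, 13.3 and 14.2 in SRAKO. These last genes differed by 0.01 and -0.02, and neither separated the genotypes.

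The spread between hearts came largely from WT2368. That heart held the lowest value in 25 of the 39 genes (64.1%, against 44.9% of all tested rows). Its median deviation from the mean of the 6 hearts was -0.11 over the 39 genes, against -0.10 over all rows. It was -0.24 in the beta ring and -0.26 in Psmd1, Psmd2 and Psmd4, but -0.08 in the ATPase ring. The other 5 hearts lay between 0.00 and 0.08 for the 39 genes. The SD on the log2 scale was larger in WT than in SRAKO in 35 of 39 genes, which was so in 67.8% of all rows. With WT2368 left out, the SRAKO hearts had the smaller SD in 20 of 39 and in 45.2% of all rows, with an SD over only 2 WT hearts.

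**Figure D4:**
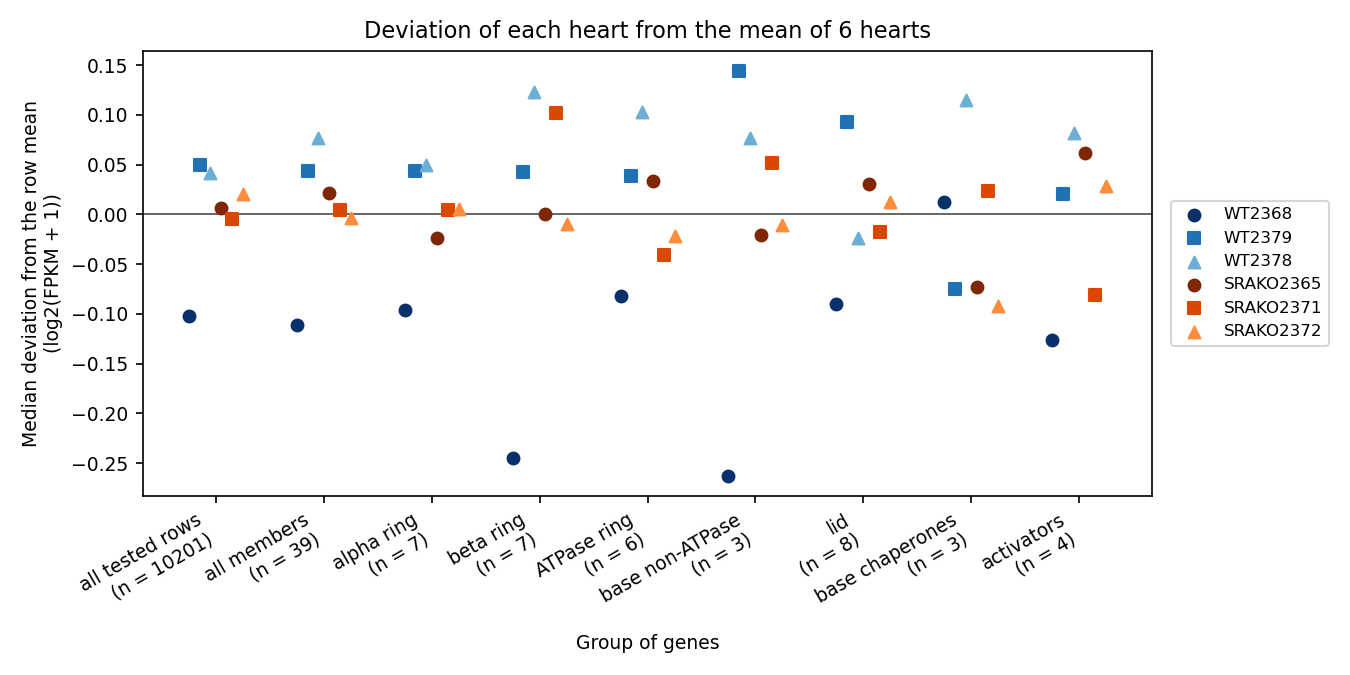
Median deviation of each heart from the mean of the 6 hearts on the log2(FPKM + 1) scale (y axis) for all tested rows, the 39 genes and each part of the complex (x axis). WT2368 is the lowest heart in 8 of the 9 groups of genes plotted, down to -0.26, while its base chaperones lie near 0.

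Leaving out WT2368 turned the balance of directions. Without it 34 of 39 genes were below 0, with a median of -0.06, against 61.1% of all rows and a median of -0.04. Still 0 genes passed at an unadjusted p under 0.05, where 6.70% of all rows did (limma; smallest adjusted p = 0.728). Without both WT2368 and SRAKO2371 there were 31 of 39 below 0, against 59.2% of all rows. By part, the medians without both were -0.04 in the alpha ring, -0.07 in the beta ring and -0.07 in the ATPase ring. They were -0.12 in Psmd1, Psmd2 and Psmd4, -0.04 in the lid, -0.10 in the base chaperones and 0.004 in the activators.

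WT2368 did not shift all genes alike. Against the mean of WT2379 and WT2378 it was lower in 33 genes, most in Psmd3 (-0.49) and Psmc4 (-0.48), and higher in 6. A shift was also present over all rows: its median was -0.19 over the 39 genes and -0.15 over all rows, of which 26.6% were higher. Psmd3, a lid scaffold, was at 13.1 in WT2368 against 19.5 and 18.3. Psmc6, an ATPase, went the other way at 31.0 against 28.2 and 24.6, a shift of 0.22. Psma4 shifted by 0.18, Psme4 by 0.12, and Psmd10, Psma3 and Psmd6 by 0.06, 0.06 and 0.04. All 6 that were higher had a transcript GC content below the median of the 39 genes, and all 20 genes at or above it were lower. Of all rows, 37.9% were higher below that GC content and 17.5% at or above it.

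Across the 39 genes the shift of WT2368 had a Pearson r of -0.68 with the GC content of the longest coding transcript, and a Spearman's rho of -0.61. Over the 10091 tested rows with a GC value, taken from the longest transcript of the row, Pearson's r was -0.23 and rho -0.33. These are descriptions over genes that share the same libraries, and genes are not independent replicates. The difference between genotypes had an r of 0.42 with GC content with all hearts (0.15 over all rows) and of -0.18 when WT2368 was left out. SRAKO2371, the other heart with more ribosomal RNA, had an r of 0.11 between its shift from the other SRAKO hearts and GC content, and of 0.17 over all rows. The part of GC content or ribosomal RNA in the values of WT2368 was not tested.

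**Figure D5:**
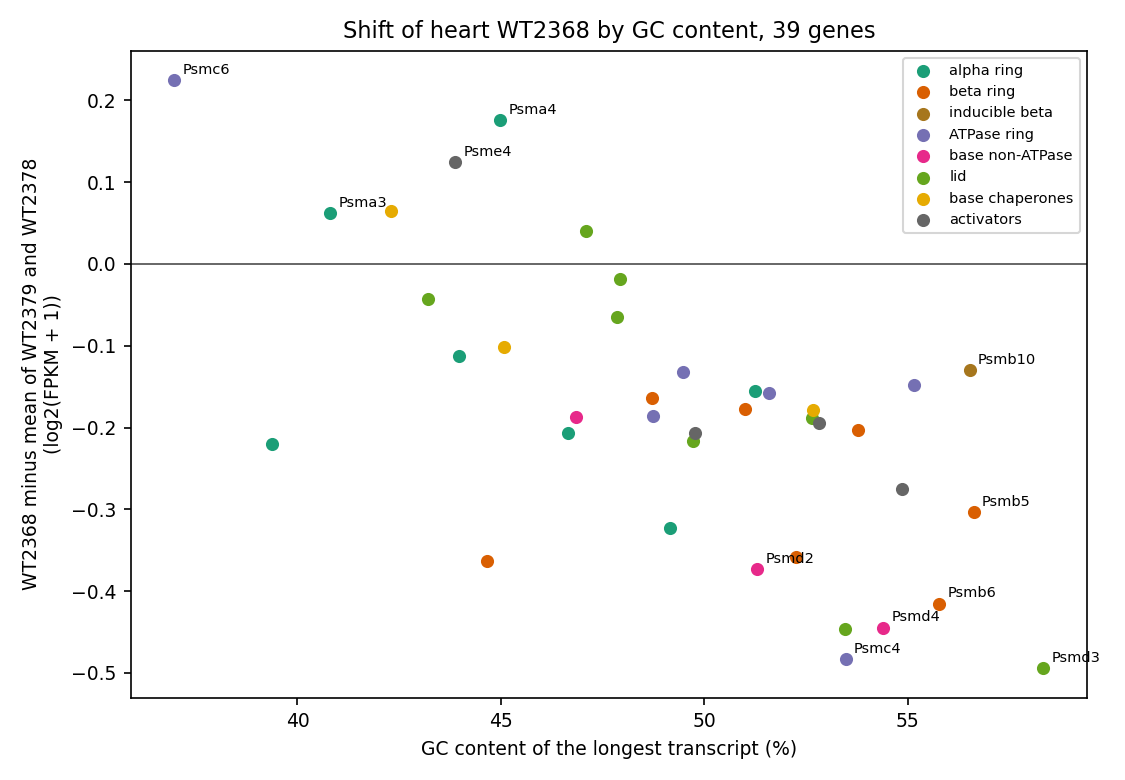
Shift of WT2368 from the mean of WT2379 and WT2378 on the log2(FPKM + 1) scale (y axis) against the GC content of the longest coding transcript in percent (x axis) for the 39 genes, coloured by part of the complex. Points fall from 0.22 for Psmc6 at a GC content of 37.0% to -0.49 for Psmd3 at 58.3%.

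The beta ring had the highest median correlation across hearts of the 5 parts compared, which were the alpha and beta rings, the ATPase ring, the lid and the activators. Over the 21 pairs of beta genes the median Pearson r across the 6 hearts was 0.85, and all pairs were positive. Without WT2368 the median was 0.56, again with all 21 positive. The alpha ring had medians of 0.29 and -0.03, the ATPase ring 0.48 and 0.24, the lid 0.28 and 0.34, and the activators 0.36 and 0.37, with all 6 of their pairs positive without WT2368. Over all 741 pairs of tested genes the medians were 0.44, and 0.21 without WT2368. Psmb1, a structural beta subunit, was closest to the median of the other genes over the 6 hearts, with an r of 0.98. Psma4 was farthest, at -0.85. Both values include WT2368, whose shift from the other WT hearts was -0.36 for Psmb1 and 0.18 for Psma4. These values over 5 or 6 hearts share libraries and depth and carry no test. No value over pairs from all rows is given beside them.

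Genes around the proteasome did not pass the test either. Of 58 tested genes in 7 lists, 0 passed adjustment, 26 were above 0 and 32 below, and 3 were higher and 1 lower in every SRAKO heart than in any WT heart. Over all rows 4.28% and 3.76% were, so a few such genes among 58 are near the background. Transcriptional control had 3 of 9 genes above 0, with Nfe2l1 at 17.2, 20.8 and 19.04 in WT and 22.3, 16.5 and 17.1 in SRAKO. Nfya, a subunit of NF-Y, was the gene lower in every SRAKO heart, at 1.95 ± 0.147 against 1.68 ± 0.120 (SD over 3 hearts). The gap was narrow, with WT2379 at 1.83 and SRAKO2365 at 1.81 (difference -0.14, limma, unadjusted p = 0.148). Assembly factors and the inhibitor of the core had 4 of 6 above 0. Among them Pomp, which matures the core, was at 3.30, 3.43 and 3.35 in WT and 4.01, 3.69 and 4.06 in SRAKO, and did not overlap. Limma gave a difference of 0.17 (SE 0.08), an unadjusted p of 0.0714 and a Benjamini-Hochberg adjusted p of 0.999. Psmg1, an alpha ring chaperone, was at 5.11 ± 0.359 in WT and 5.46 ± 0.0860 in SRAKO, also without overlap. That separation was slight, with WT2378 at 5.3618 and SRAKO2372 at 5.3633 (limma, unadjusted p = 0.374).

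Among other parts and enzymes bound to the particle, 2 of 7 genes were above 0. Usp14, a deubiquitinase of the regulatory particle, was the gene of the 58 with an unadjusted p under 0.05, a smaller share than the 3.46% of all rows, at 3.52, 3.94 and 3.68 in WT and 2.14, 3.55 and 2.47 in SRAKO. Its difference was -0.36 (limma, unadjusted p = 0.0362, Benjamini-Hochberg adjusted p = 0.999), and SRAKO2371 lay within the WT values. The unfoldase p97 and shuttle factors had 6 of 11 above 0, and ubiquitin genes with the activating enzyme 4 of 5. The inducible subunits with the peptide transporters Tap1 and Tap2 had 1 of 4 above 0. Ubiquitin ligases had 6 of 16 above 0, with a median of -0.04. Stub1, a chaperone-linked ligase whose row also covers Rhot2, Wdr90 and other neighbours, did not overlap at 10.9 ± 0.701 in WT and 12.2 ± 0.313 in SRAKO. The muscle atrophy ligases Trim63 and Fbxo32 were at 35.2 ± 7.01 against 36.1 ± 5.60 and at 9.10 ± 1.32 against 8.12 ± 0.295.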

How the data were processed

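Poly(A) RNA of whole hearts was sequenced, per the labels' protocols, which name oligo(dT) beads. The authors deposited FPKM values per gene and heart. The tools named are StringTie 1.3.4d, edgeR, HISAT2 2.0.4 and cutadapt 1.9, per the submitters' processing notes, which name the human build hg38, while 99.6% of the table's mouse transcript identifiers matched GENCODE M21, from which positions were taken. FPKM holds no read counts: of 60 low rows per heart, 56.7% to 70.0% fell on whole steps of an aligned base within 0.05, so no count test was run, and the steps give depth only roughly. Groups came from the sample titles. The labels do not say that hearts come from separate litters or batches. The p-values set the genotype difference against the spread between these hearts within genotype, and take the hearts as independent.

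Rows reaching FPKM 1 in 3 or more of the 6 hearts were fitted as log2(FPKM + 1) by genotype in limma 3.58.1 (R 4.3.3) with a variance trend, two-sided, Benjamini-Hochberg adjusted over all 10201 rows; differences of genes with low FPKM are understated by the pseudocount of 1. The code was tested on simulated data. The members and lists were chosen with earlier results of these data known. Named were catalytic subunits, Psmd14, ubiquitin receptors, activators, the highest and lowest gene of each part, genes without overlap or with an unadjusted p under 0.05, and up to 3 genes per list plus Psmb8, Psmb9, Nfe2l1, Trim63 and Fbxo32. Psmd3, Psmd11, Psmd9, Psmb1, Psmc4, Psmc6 and Psma4 were named after their values were seen. Alternatives were other pseudocounts, filters, scalings, weights and left-out hearts.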

Additional observations from a re-analysis of the deposited data

How the results depend on the processing

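With 17 alternatives, 0 of the 39 proteasome genes passed adjustment in any, and 0 had an unadjusted p under 0.05 in any; the smallest adjusted p of a member was 0.728, without WT2368. The median log2 difference of the genes lay between -0.06 and 0.04 with single hearts left out, and was -0.06 without both WT2368 and SRAKO2371, 0.00 with upper-quartile scaling, -0.01 with quantile normalization and -0.03 with array weights. With array weights 12 of 39 genes were above 0. Directions of such small differences therefore depend on the processing. The number of rows called over the whole table was 2, lay between 0 and 7 with single hearts left out (7 without WT2378, 6 without WT2379, 0 without WT2368 or SRAKO2365), was 1 with a pseudocount of 0.1, with a minimum FPKM of 5 and with rescaling to TPM, and 0 with no filter, without both WT2368 and SRAKO2371 and with a batch term for them. Summing the rows of a symbol was not run, because each gene was found in a single row. No paired analysis was possible because the hearts share no replicate numbers. FPKM without counts limits what can be said of the genes with the lowest levels, Psma8, Psmd5 and Psmd9.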
